A study of Schizosaccharomyces pombe with 6 samples.

Results

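Cohesin and condensin are the ring-shaped protein complexes that hold and fold chromosomes, and their genes were examined here in the fission yeast *Schizosaccharomyces pombe*. The members are the 5 genes of cohesin and its loader (*psm1*, *psm3*, *rad21*, *psc3*, and *mis4*) and the 5 genes of condensin (*cut3*, *cut14*, *cnd1*, *cnd2*, and *cnd3*). They were taken by gene symbol, and all 10 were found among the 5184 genes of the deposited table. Poly(A) RNA of whole cells was sequenced from 3 *htb1-K119R* and 3 WT libraries, which the study describes as independent biological repeats. In *htb1-K119R*, Lys119 of histone H2B is replaced by Arg. The *htb1*+ gene is the only H2B gene of this yeast, and Lys119 is the residue that carries the single ubiquitin of H2B, so the mutant lacks this mark. The strain list of the study gives the mutant as h- ura4-D18 htb1-K119R::kanMX6 and WT as h+ ade6-M216 leu1-32 ura4-D18. Mating type, the *ade6* and *leu1* markers, and the inserted kanMX6 cassette thus cannot be told apart from the histone substitution. Each genotype is represented by 1 strain, and the growth conditions of the RNA-seq cultures are not given in the sources used here.

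Both complexes are built on a pair of SMC (structural maintenance of chromosomes) ATPases, long coiled-coil proteins that join at their hinges. A kleisin protein closes each ring by bridging the ATPase heads, and HEAT-repeat proteins bind the kleisin. Cohesin holds sister chromatids together from S phase until anaphase and is loaded onto DNA by Mis4 with its partner Ssl3. Condensin compacts chromosomes for mitosis. The *cut* genes are named after mutants in which the septum cuts through an unsegregated nucleus.

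Of the members, *psm1* and *psm3*, which encode the SMC pair of cohesin, passed the test (a false discovery rate, FDR, below 0.05) as higher in *htb1-K119R*, and no member passed as lower. That is 2 of 10 higher and 0 lower, where 18.6% of all genes tested passed as higher and 19.3% as lower. The letters ACGCGT, the MluI cell-cycle box that the MBF transcription factor binds at genes of the G1/S transition, stand just before the annotated start of *psm3*. The search covered the 250 bases before each start in the ASM294v3 genome (RefSeq). The hexamer is its own reverse complement, so one search covers both strands. Short windows are shown for *psm3*, as a member that passed the test, and for *pds5*, a cohesin-associated gene with 2 copies of the same letters, in the direction of transcription and with the hexamer in capitals.
*psm3*, chrI:1224859-1224885, minus strand: agaagacacgcgACGCGTaaatacttt
*pds5*, chrI:1911785-1911814, plus strand: acaataaatggaACGCGTtcttttACGCGT
The hexamer begins 15 bases before the annotated start of *psm3*. It was found before 0 of 5 condensin genes, 3 of 11 cohesin regulators (*pds5*, *rec8*, and *rec11*), and 135 of 5112 protein-coding genes (2.64%). In the other related lists described below it was found before 0 of 8 Smc5-Smc6 genes and 0 of 8 condensin and centromere partners. The log2 fold changes of *pds5* (−0.35), *rec8* (0.42), and *rec11* (−0.10) did not pass the test. Carriers of the hexamer were called in both directions. Of the 124 carriers tested, 16 (12.9%) passed as higher in *htb1-K119R* and 25 (20.2%) as lower, with a median log2 fold change of −0.06. A match of letters is a description only and was not tested for binding.

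The library totals lay between 15987167 and 20701391 counts. Fold changes are from edgeR's quasi-likelihood test on the counts of all 4969 genes tested, with TMM normalization and Benjamini-Hochberg adjustment. A value after ± beside a log2 fold change is its standard error (SE). CPM values are counts scaled to the TMM-normalized size of the library. WT replicate 3 stood apart from the other WT libraries, with a mean absolute log2 difference per gene of 0.402 and 0.336 to WT replicates 1 and 2, which differed from each other by 0.2. Values without it are therefore given beside the results that it changed. The targeted gene *htb1*+ (SPCC622.09) was at 1346 to 1456 CPM in *htb1-K119R* and 1360 to 1854 CPM in WT (log2 fold change −0.26 ± 0.171, adjusted *P* = 0.26). Gene counts cannot show the substitution itself.

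*psm1* (SPBC29A10.04, chrII:2540716-2545157, plus strand, 2 exons) encodes the Smc1 subunit of cohesin. It was counted 177, 150, and 156 times in *htb1-K119R* replicates 1, 2, and 3, and 42, 40, and 61 times in WT replicates 1, 2, and 3. These counts correspond to 8.32, 8.24, and 8.06 CPM in *htb1-K119R* and to 3.19, 2.87, and 2.52 CPM in WT. Every mutant library lay above every WT library, and the mutant libraries were close together. It was 2.89-fold higher in *htb1-K119R* (log2 fold change 1.53 ± 0.18, adjusted *P* = 0.000124). Leaving out each library in turn gave 1.44 to 1.61, with adjusted *P* of at most 0.00128. In a culture, more cells of the stage at which a gene is transcribed and more mRNA per cell cannot be told apart.

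*psm3* (SPAC10F6.09c, chrI:1220969-1224858, minus strand, 2 exons) encodes Smc3, the partner of Psm1 in the ring. Its counts were 113, 80, and 86 in *htb1-K119R* and 35, 41, and 79 in WT, or 5.31, 4.39, and 4.44 CPM in the mutant and 2.66, 2.94, and 3.26 CPM in WT. The groups again did not overlap, although the lowest mutant value and the highest WT value were closer than for *psm1*. The log2 fold change of 0.66 (SE 0.201, adjusted *P* = 0.0252) passed the test without reaching 2-fold. This call depended on single libraries. It was lost without WT replicate 1 (0.60, adjusted *P* = 0.0648), WT replicate 2 (0.66, adjusted *P* = 0.0763), *htb1-K119R* replicate 1 (0.57, adjusted *P* = 0.122), or *htb1-K119R* replicate 3 (0.71, adjusted *P* = 0.0639). Without WT replicate 3 it remained past the threshold, at 0.75 (adjusted *P* = 0.0128).

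*rad21* (SPCC338.17c, chrIII:1342893-1346239, plus strand, 2 exons) encodes the mitotic kleisin that separase cleaves at anaphase. It is the most abundant member, with 61.1, 54.6, and 58.8 CPM in *htb1-K119R* and 63.4, 65.5, and 69.5 CPM in WT. Every mutant value was below every WT value, but the difference was small (log2 fold change −0.19 ± 0.0973) and did not pass the test (adjusted *P* = 0.155). Its annotated span shares 962 bases with *pof3* on the other strand. *pof3*, which encodes an F-box protein, was itself higher in *htb1-K119R* by 1.47 on the log2 scale (adjusted *P* = 0.00256). Whether the counting used strand is not given in the sources used here, so reads of the 2 genes cannot be told apart over the shared bases. The same limit holds for other genes called here. Overlaps of antisense noncoding RNAs with *psm1* (4442 bases) sum to 3543 bases, where bases shared between these RNAs count more than once. An antisense noncoding RNA covers all 3890 bases of *psm3*. Coding genes lie opposite 1745 bases of *mde4* (*atg7*) and 842 bases of *nse1* (*hsp10*).

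*psc3* (SPAC17H9.20, chrI:2036295-2040544, plus strand, 6 exons) encodes the HEAT-repeat subunit that binds Rad21. It had 5.03, 4.78, and 3.77 CPM in *htb1-K119R* and 4.02, 3.02, and 5.08 CPM in WT. The groups overlapped, with WT replicate 3 the highest library of all (log2 fold change 0.14 ± 0.233, adjusted *P* = 0.657). Without that library the log2 fold change was 0.37 (adjusted *P* = 0.211). The span of *psc3* shares 1048 bases with an antisense coding gene, SPAC607.02c, whose log2 fold change was −0.99 (adjusted *P* = 0.0118).

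*mis4* (SPAC31A2.05c, chrI:391628-396939, minus strand, 8 exons) encodes the cohesin loader. It had 3.38, 3.68, and 3.56 CPM in *htb1-K119R* and 4.86, 3.37, and 3.88 CPM in WT. All mutant values fell within the WT range, and the log2 fold change of −0.18 (SE 0.208) did not pass the test (adjusted *P* = 0.513).

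**Figure D1:**
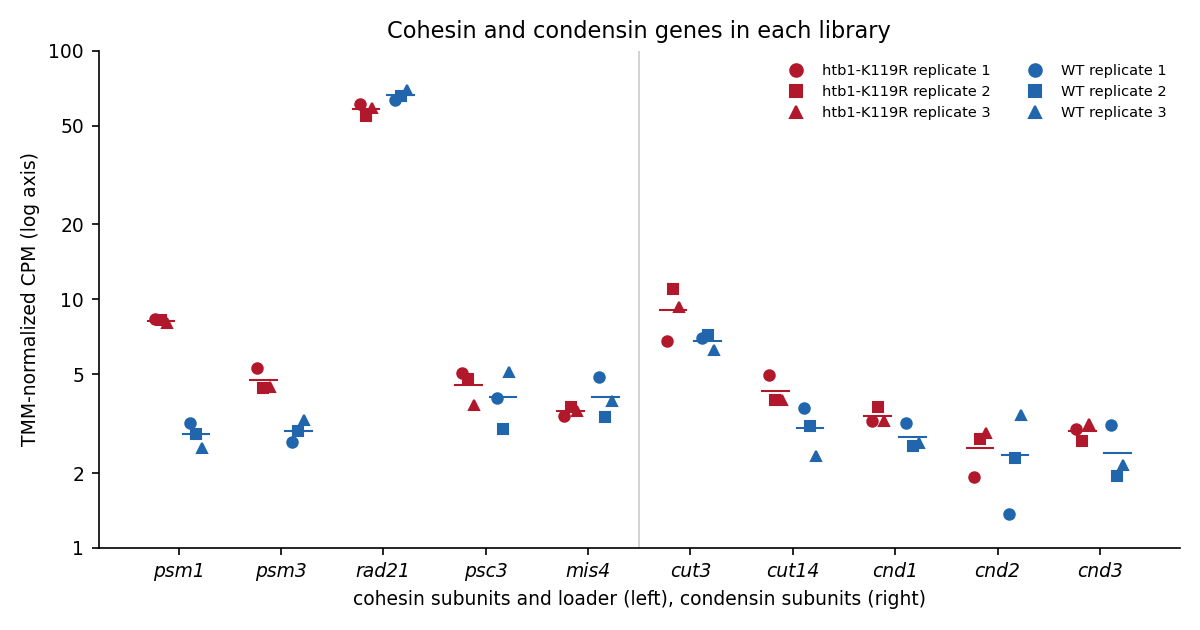
TMM-normalized CPM (log axis) of the 10 cohesin and condensin genes in each library, with *htb1-K119R* in red to the left of WT in blue, a symbol per replicate, and the mean as a line. The *psm1* values of 8.06 to 8.32 CPM in *htb1-K119R* lie clear of the 2.52 to 3.19 CPM in WT, whereas *psc3*, *mis4*, *cut3*, *cnd2*, and *cnd3* overlap between genotypes.

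The SMC pair of condensin is encoded by *cut3* (SPBC146.03c, chrII:1002263-1006523, minus strand, 1 exon), the Smc4 subunit, and *cut14* (SPBP4H10.06c, chrII:2877687-2881368, minus strand, 1 exon), the Smc2 subunit. *cut3* had 6.82, 11, and 9.35 CPM in *htb1-K119R* and 6.98, 7.18, and 6.28 CPM in WT. Mutant replicate 1 lay inside the WT range and the other mutant libraries above it (log2 fold change 0.41 ± 0.195, adjusted *P* = 0.119). *cut14* had 4.94, 3.95, and 3.93 CPM in *htb1-K119R* and 3.64, 3.09, and 2.35 CPM in WT. Its groups did not overlap, and WT replicate 3 was the lowest library. The log2 fold change of *cut14* was 0.52 (SE 0.23), which missed the threshold (adjusted *P* = 0.0961), and was 0.35 (adjusted *P* = 0.232) without WT replicate 3.

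The non-SMC subunits of condensin did not pass the test. *cnd1* (SPBC776.13, chrII:3200088-3203986), the CAP-D2 subunit, had 3.24, 3.68, and 3.25 CPM in *htb1-K119R* and 3.19, 2.58, and 2.64 CPM in WT. Its groups were separated by the narrow gap between 3.24 and 3.19 CPM (log2 fold change 0.28 ± 0.211, adjusted *P* = 0.32). *cnd2* (SPCC306.03c, chrIII:409354-412091), the kleisin of condensin, had 1.93, 2.75, and 2.89 CPM in *htb1-K119R* and 1.37, 2.3, and 3.43 CPM in WT. The WT libraries spanned the whole mutant range, WT replicate 3 again being the highest (log2 fold change 0.04 ± 0.328, adjusted *P* = 0.937). Without it the log2 fold change of *cnd2* was 0.45 (adjusted *P* = 0.261). *cnd3* (SPCC188.03, chrIII:1478203-1481959), the CAP-G subunit, had 3.01, 2.69, and 3.15 CPM in *htb1-K119R* and 3.11, 1.94, and 2.15 CPM in WT, and its groups overlapped (log2 fold change 0.31 ± 0.248, adjusted *P* = 0.343). All 3757 bases of the *cnd3* span lie opposite the annotated span of *spc25*, a kinetochore gene with a log2 fold change of −0.19 (adjusted *P* = 0.453).

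Over the members, 2 of 10 passed an FDR below 0.05 as higher in *htb1-K119R* and 0 as lower. Beside the 18.6% and 19.3% of all genes, the share of members called higher was near the background. With the study's additional threshold of more than 2-fold change, 1 member was called higher and 0 lower, beside 4.71% of all genes called higher and 3.64% called lower. At an unadjusted *P* below 0.05 there were 3 of 10 members, *cut14* in addition to *psm1* and *psm3*. Of all 4969 genes tested, 2385 were below it, a larger share than among the members. Every mutant CPM lay above every WT CPM in 4 members (*psm1*, *psm3*, *cut14*, and *cnd1*) and below in 1 (*rad21*), where 25.0% and 23.9% of all genes did so. The members' median log2 fold change was 0.30, against −0.01 for all genes tested. With library totals in place of TMM the median over all genes moved to 0.152 and the calls over all genes to 815 higher and 403 lower, from 924 and 958. On that scale the members' median was 0.46.

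**Figure D2:**
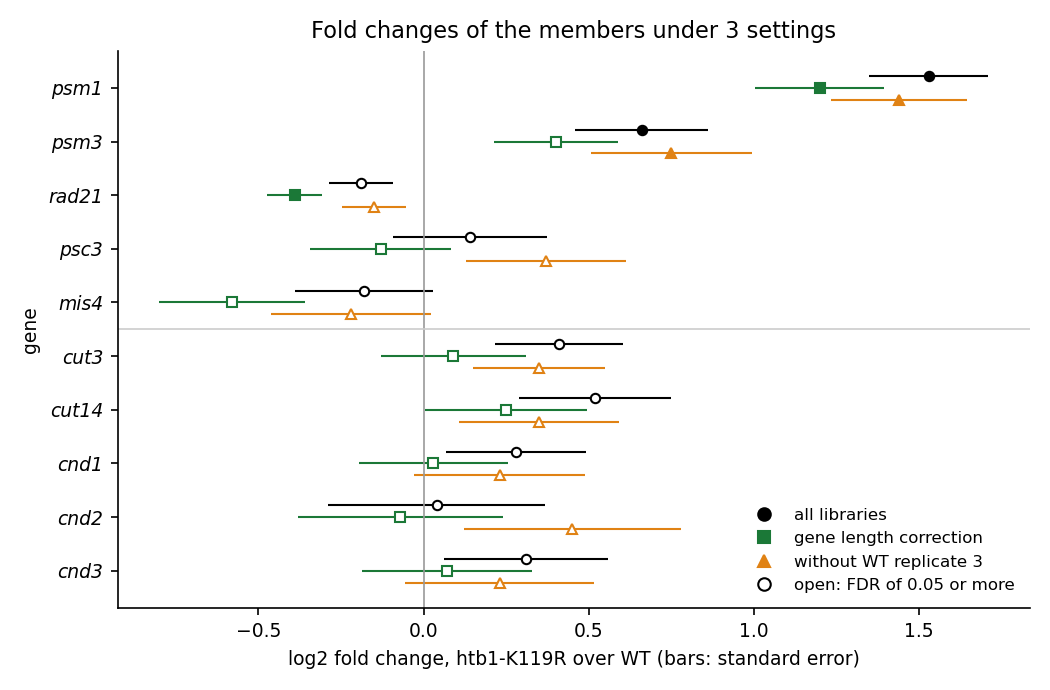
Log2 fold change of each member in *htb1-K119R* over WT with its standard error, from all libraries (black), with a correction for gene length (green), and without WT replicate 3 (orange). Filled symbols have an FDR below 0.05, which holds for *psm1* in each fit, for *psm3* in the fits without the length correction, and for *rad21*, as lower, only with it.

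Gene length moved with the fold changes of the whole table, and the members are long genes. Their lengths, as implied by the deposited counts and FPKM (fragments scaled to gene length and library size), were 2756 to 5085 bases, against a median of 1824 bases for all genes tested. Implied lengths lay within 10% of the ASM294v3 exon length for 78.8% of the genes matched to that annotation. When the genes were divided by length into 5 classes of equal size, 9 of 10 members fell into the longest class. In that class (2913 to 15022 bases) the median log2 fold change was 0.27, 34.4% of genes passed as higher in *htb1-K119R*, and 7.24% passed as lower. In the shortest class (183 to 1124 bases) the median was −0.27, with 8.55% higher and 30.4% lower. Read against its own length class, the members' median of 0.30 was thus close to that of long genes in general.

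A fit with offsets that remove the length trend from each library gave *psm1* a log2 fold change of 1.20 (adjusted *P* = 0.000734). With the same offsets *psm3* was at 0.40 and no longer passed (adjusted *P* = 0.114). *rad21* passed as lower, at −0.39 (adjusted *P* = 0.00411). *mis4* was at −0.58 (adjusted *P* = 0.0574), and the condensin genes lay between −0.07 (*cnd2*) and 0.25 (*cut14*). The members' median was then 0.05. Across all 19 fits made, *psm1* passed an FDR below 0.05 in every one, with log2 fold changes of 0.89 to 1.70, and *psm3* passed in 8.

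**Figure D3:**
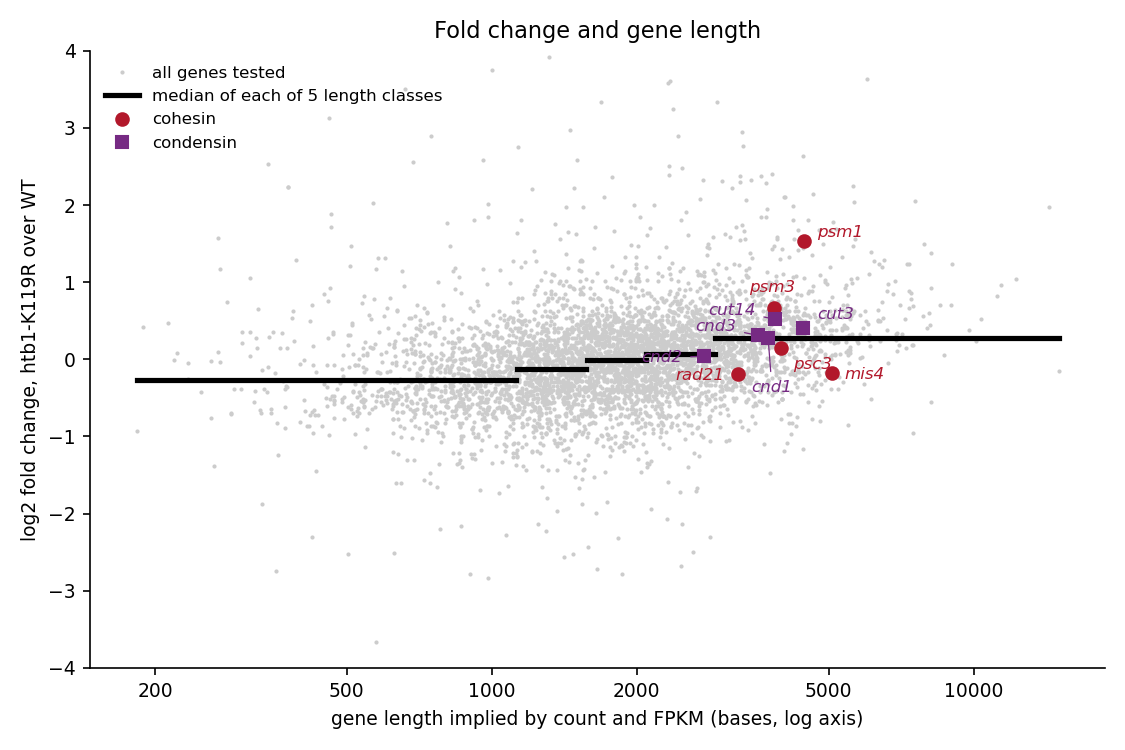
Log2 fold change in *htb1-K119R* over WT against gene length in bases (log axis) for the genes tested (grey, 13 of them beyond the vertical axis), with the median of each of 5 length classes as a black bar and the members marked. The medians run from −0.27 in the shortest class to 0.27 in the longest, where *psm1* lies well above the bar and most other members lie near it.

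Levels of the members were compared per length with the deposited FPKM, which is scaled to library totals. *rad21* was the highest in both genotypes, with 19.2 ± 2.15 FPKM in *htb1-K119R* and 19.6 ± 4.85 FPKM in WT (mean ± SD, *n* = 3 each). The other 9 members were weakly expressed, at percentiles of mean FPKM of 11.5 or less over the genes tested, whereas *rad21* was at the percentile of 59.1. In *htb1-K119R* the next levels were 2.16 ± 0.387 FPKM for *cut3* and 1.96 ± 0.129 FPKM for *psm1*, which overlapped. *psm1* in turn lay above *psm3* without overlap. From *psm3* (1.31 ± 0.217 FPKM) through *psc3*, *cut14*, *cnd2*, and *cnd1* to *cnd3* (0.881 ± 0.104 FPKM), each gene overlapped the next, and *mis4* was lowest at 0.74 ± 0.011 FPKM.

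In WT the order below *rad21* began with *cut3* (1.45 ± 0.185 FPKM) and *psc3* (0.993 ± 0.44 FPKM), and *psm1* came last at 0.603 ± 0.0541 FPKM. Every neighbouring pair below *rad21* overlapped in WT. Genes farther apart in the order could still be separated, since *cut3* (1.300 to 1.659 FPKM) lay above every value of *mis4*, *psm3*, *cut14*, *cnd1*, *cnd3*, and *psm1*, and *psm1* lay below every value of *cut14* (0.689 to 0.776 FPKM). The 3 WT libraries had 0.590, 0.556, and 0.662 FPKM of *psm1*, against 2.109, 1.865, and 1.913 FPKM in the *htb1-K119R* libraries. *psm1* thus had rank 3 of the 10 members in the mutant and rank 10 in WT.

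Ratios of FPKM within a library do not depend on its scaling. They compare subunits that sit in one complex, except for *mis4*/*psm3* (loader to subunit) and condensin to cohesin (complex to complex). The *psm1*/*psm3* ratio was 1.36, 1.62, and 1.57 in *htb1-K119R* and 1.04, 0.844, and 0.668 in WT. This mRNA ratio was above 1 in every mutant library and 0.668 to 1.04 in WT. Protein was not measured, so the ratio does not give the proportion of Psm1 to Psm3 in the ring. The *rad21*/*psm3* ratio was 13.7, 14.8, and 15.8 in *htb1-K119R*, against 28.4, 26.5, and 25.3 in WT. The *mis4*/*psm3* ratio was 0.483, 0.634, and 0.608 in *htb1-K119R*, against 1.39, 0.869, and 0.901 in WT. These 3 ratios did not overlap between genotypes, whereas *psc3*/*psm3* did, with means of 0.93 in *htb1-K119R* and 1.32 in WT. All of these ratios share *psm3* as denominator, so they are not separate observations. Groups without overlap were common, since every mutant CPM lay above every WT CPM in 25.0% of all genes tested and below in 23.9%. The share for ratios of other gene pairs was not computed.

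Within condensin, the ratios of *cut3*, *cnd1*, *cnd2*, and *cnd3* to *cut14* all overlapped between genotypes. The *cut3*/*cut14* ratio averaged 1.91 ± 0.629 in *htb1-K119R* and 2.01 ± 0.328 in WT (SD, *n* = 3 each). Summed over their 5 members, condensin had 5.9, 6.29, and 6.26 FPKM in *htb1-K119R* and 3.91, 3.87, and 5.35 FPKM in WT. Cohesin, most of which is *rad21*, had 27.1, 22, and 24.1 FPKM in *htb1-K119R* and 18.9, 19.9, and 29.2 FPKM in WT. These sums are on the scale of library totals. On that scale the median FPKM of all genes tested was 13.8, 11.8, and 12.7 in *htb1-K119R* and 9.88, 10.7, and 15.2 in WT. No condensin gene passed the test on TMM-normalized counts. The condensin to cohesin ratio was 0.217, 0.286, and 0.26 in *htb1-K119R* and 0.207, 0.194, and 0.184 in WT, without overlap. With 3 libraries against 3, a two-sided exact permutation test cannot go below *P* = 0.1, the value of each of the 4 ratios that did not overlap (0.225 when adjusted over the 9 ratios), so none of these differences could pass a threshold of 0.05.

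**Figure D4:**
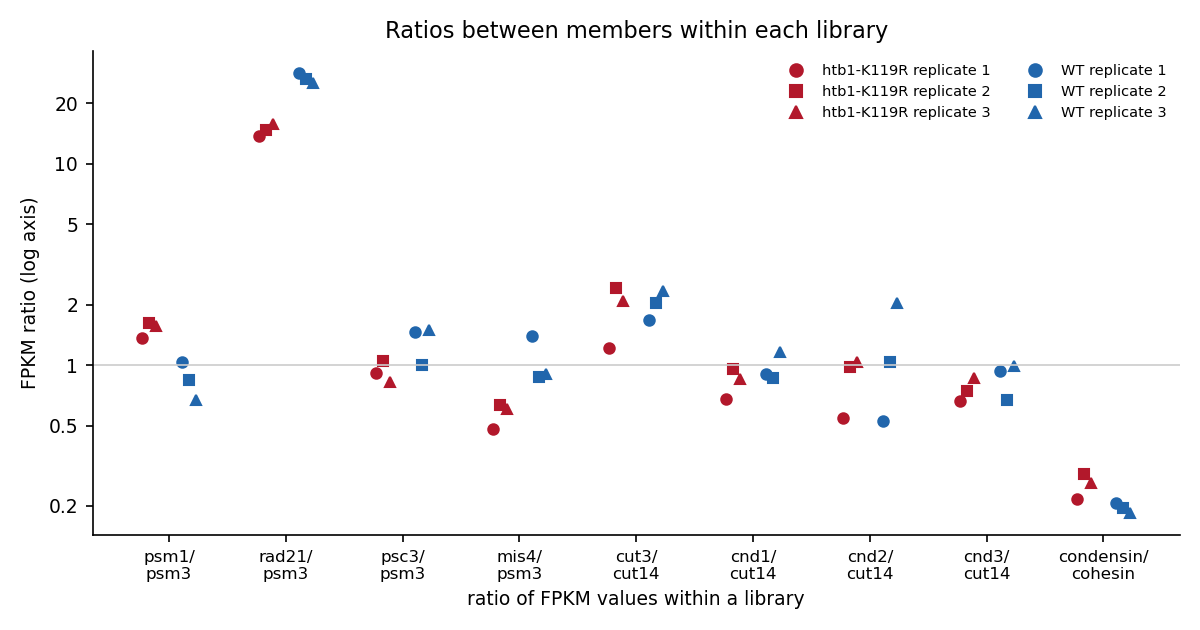
Ratios of FPKM between members within each library (log axis), *htb1-K119R* in red to the left of WT in blue, a symbol per replicate. The *psm1*/*psm3* ratio lies at 1.36 to 1.62 in *htb1-K119R* and 0.668 to 1.04 in WT, whereas the ratios to *cut14* overlap.

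The genes that load, release, modify, and cleave cohesin were examined as a list of 11, of which 10 were tested. Of these, 4 passed as higher in *htb1-K119R* and 0 as lower, with a median log2 fold change of 0.35, beside 18.6% higher and 19.3% lower among all genes tested. By implied length, *cut1* fell in the longest class, where 34.4% of genes passed as higher. *eso1* and *wpl1* fell in the class of 2094 to 2912 bases, where 19.8% did so, and *sgo1* in the shortest class, where 8.55% did so. *eso1*, the acetyltransferase that establishes cohesion by modifying Psm3, had 8.46, 7.58, and 7.54 CPM in *htb1-K119R* and 3.04, 3.16, and 2.52 CPM in WT (log2 fold change 1.45 ± 0.185, adjusted *P* = 0.000209). *cut1*, the separase that cleaves Rad21, had 21.2, 23.8, and 20.1 CPM in *htb1-K119R* and 6.76, 9.4, and 8.55 CPM in WT (log2 fold change 1.39 ± 0.152, adjusted *P* = 8.01e-05). In both genes the mutant libraries lay far above those of WT.

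*wpl1*, which releases cohesin from chromatin, had 4.84, 5.66, and 5.42 CPM in *htb1-K119R* and 2.66, 2.15, and 3.76 CPM in WT (log2 fold change 0.86 ± 0.232, adjusted *P* = 0.0154). Its call was lost without WT replicate 2 (0.70, adjusted *P* = 0.063), *htb1-K119R* replicate 2 (0.79, adjusted *P* = 0.055), or *htb1-K119R* replicate 3 (0.85, adjusted *P* = 0.0547). *sgo1*, the shugoshin that protects meiotic cohesin, was at the edge of detection, with 27, 20, and 23 counts in *htb1-K119R* and 2, 2, and 6 counts in WT (log2 fold change 2.58 ± 0.426, adjusted *P* = 0.00106). All 1032 bases of *sgo1* lie opposite the span of *txc1*. The remaining genes tested were the loader partner *ssl3*, *pds5*, the securin *cut2*, the meiotic subunits *rec8* and *rec11*, and the mitotic shugoshin *sgo2*, which had log2 fold changes between −0.35 (*pds5*) and 0.42 (*rec8*). Without WT replicate 3, *pds5* (−0.49, adjusted *P* = 0.0462) and *cut2* (−0.31, adjusted *P* = 0.0167) passed as lower, and *pds5* also did so with the length correction (−0.65, adjusted *P* = 0.0497). *moa1*, a meiotic kinetochore gene with 12, 8, and 6 counts in *htb1-K119R* and 4, 2, and 3 counts in WT, was below the count filter.

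The Smc5-Smc6 complex, built on another SMC pair, acts in DNA repair, and all 8 of its genes were tested. *smc5* passed as higher in *htb1-K119R*, and *nse1*, *nse3*, *nse4*, and *nse5* passed as lower, which is 1 of 8 and 4 of 8 beside 18.6% and 19.3% of all genes. By implied length, *smc5* fell in the longest class, where 34.4% of genes passed as higher. *nse3* and *nse4* fell in the class of 1126 to 1572 bases, where 26% passed as lower. *nse1* and *nse5* fell in the class of 1573 to 2094 bases, where 17.6% passed as lower. The annotated exon length of *nse5*, 1290 bases, would place it in the class of 1126 to 1572 bases instead. *smc5* had 5.03, 5.98, and 5.27 CPM in *htb1-K119R* and 2.73, 2.01, and 1.94 CPM in WT (log2 fold change 1.30 ± 0.217, adjusted *P* = 0.00115). Its partner *smc6* had 6.53, 5.33, and 5.99 CPM in *htb1-K119R* and 5.09, 3.88, and 4.38 CPM in WT, which did not overlap but did not pass the test (log2 fold change 0.42 ± 0.187, adjusted *P* = 0.0964). As in cohesin, one gene of the SMC pair was more than 2-fold higher in the mutant and its partner had a smaller log2 fold change. In condensin neither gene of the pair passed (*cut3* at 0.41, *cut14* at 0.52). The difference between *smc5* and *smc6* was not tested, and the *psm1*/*psm3* ratio could not pass its permutation test.

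Among the non-SMC genes, *nse1*, a RING protein, averaged 116 ± 11.2 CPM in *htb1-K119R* and 155 ± 11.9 CPM in WT (log2 fold change −0.42, adjusted *P* = 0.0134). *nse3*, a MAGE-domain protein, was at −0.64 (adjusted *P* = 0.0126), the kleisin *nse4* at −0.83 (adjusted *P* = 0.0498), and *nse5* at −0.56 (adjusted *P* = 0.0409). The calls of the last 2 were weak. That of *nse5* was lost without any one of the 6 libraries (−0.62 to −0.52) and that of *nse4* without any one but *htb1-K119R* replicate 3 (−0.92 to −0.60). Those of *nse1* (−0.36, adjusted *P* = 0.0769) and *nse3* (−0.59, adjusted *P* = 0.0527) were lost without WT replicate 2, and that of *nse1* also without *htb1-K119R* replicate 1 (−0.35, adjusted *P* = 0.0826). With library totals in place of TMM none of the 4 passed. With the length correction *nse4* no longer passed (−0.70, adjusted *P* = 0.0867), whereas *nse1*, *nse3*, and *nse5* still did.

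Of 8 partners of condensin and the centromere, 4 passed as higher in *htb1-K119R* and 0 as lower, with a median log2 fold change of 0.45, beside the same 18.6% and 19.3% of all genes. The 4 called genes (*pic1*, *bir1*, *mde4*, and *top2*) had implied lengths of 3268 to 6627 bases. That places them in the longest length class, where 34.4% of genes passed as higher. *pic1*, the INCENP scaffold of the chromosomal passenger complex, had 10.3, 11.3, and 11 CPM in *htb1-K119R* and 2.43, 2.01, and 2.11 CPM in WT (log2 fold change 2.32 ± 0.176, adjusted *P* = 7.55e-06). *bir1*, the survivin of the same complex, had 26.1, 26.6, and 27.5 CPM in *htb1-K119R* and 10.3, 11.9, and 10.2 CPM in WT (log2 fold change 1.31 ± 0.122, adjusted *P* = 3.09e-05). The other passenger genes, the Aurora kinase *ark1* and the borealin *nbl1*, had log2 fold changes of 0.02 and −0.08 that did not pass the test.

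*mde4*, a monopolin subunit, had 10.6, 13.9, and 9.92 CPM in *htb1-K119R* and 3.42, 4.24, and 4.01 CPM in WT (log2 fold change 1.55 ± 0.189, adjusted *P* = 0.000163). Its partner *pcs1* was at −0.78 (SE 0.331, adjusted *P* = 0.0857). Without WT replicate 3, *pcs1* (−0.82, adjusted *P* = 0.0463) and *cti1*, whose product binds Cut3 (−0.48, adjusted *P* = 0.00202), passed as lower. *top2*, the type II topoisomerase that works with condensin, had 19.7, 20.2, and 17.9 CPM in *htb1-K119R* and 12.8, 11, and 8.05 CPM in WT (log2 fold change 0.88 ± 0.17, adjusted *P* = 0.00274). With the length correction *top2* was at 0.34 and no longer passed (adjusted *P* = 0.18), whereas *eso1* (1.32), *cut1* (0.91), *smc5* (1.03), *pic1* (2.11), *bir1* (1.08), and *mde4* (1.36) still passed.

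**Figure D5:**
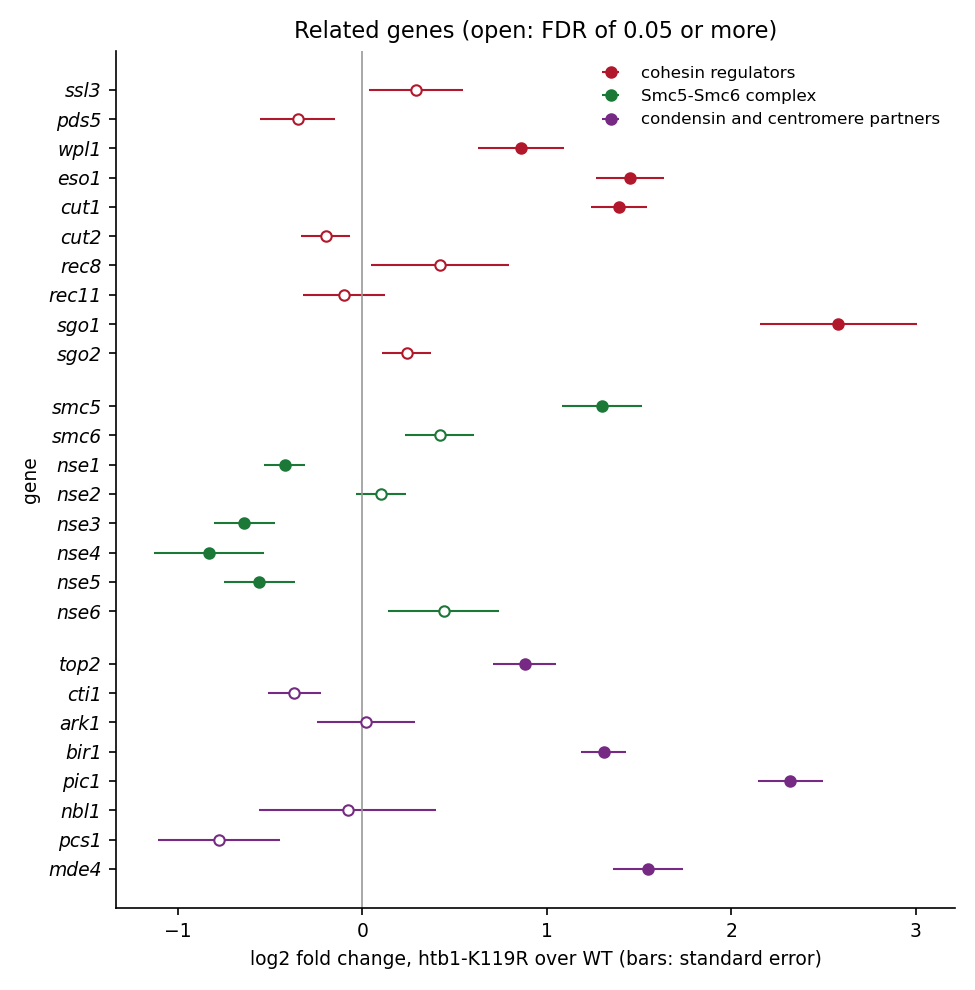
Log2 fold change in *htb1-K119R* over WT, with its standard error, of the genes tested from the 3 related lists (cohesin regulators in red, the Smc5-Smc6 complex in green, condensin and centromere partners in purple), with filled symbols for an FDR below 0.05. *sgo1* (2.58) and *pic1* (2.32) lie farthest to the right, and *nse4* (−0.83) and *pcs1* (−0.78) farthest to the left.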

How the data were processed

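RNA-seq of 3 *htb1-K119R* and 3 WT libraries was analysed, grouped by the genotype label. Per the study's methods, mRNA selected with oligo(dT) beads was sequenced (Illumina HiSeq), and the authors filtered out rRNA reads before HISAT2 mapping against Ensembl release 45. The submitters' processing notes also name fastp, Bowtie2, RSEM, and DESeq2. The authors deposited raw counts per gene and library, and the tool that counted is not given in the sources used here. The authors computed FPKM values via StringTie. The deposited mean, log2 fold change, p-value, and FDR columns hold the authors' own comparison and were not used, nor were 12 further columns of per-sample values.

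The fit used edgeR 4.0.16 (R 4.3.3) on the counts (TMM, filterByExpr, glmQLFit, glmQLFTest, genotype only), and p-values were Benjamini-Hochberg adjusted over 4969 genes (FDR threshold 0.05, fold threshold 2). Standard errors are those implied by the F statistic. Ratios were compared by exact permutation tests in scipy 1.17.1 (Python 3.11.15, numpy 2.4.6, pandas 2.3.3). Alternatives were RLE normalization, library totals, a fit without the filter, a filter of 10 or more counts in every library, a replicate block, DESeq2 1.42.0, limma 3.58.1 on log2(FPKM + 1) and log2(FPKM + 0.1) where the mean FPKM reached 1 and on the first without that filter, lowess offsets for gene length (span 0.3) without and with the block, and leaving out each library. Offsets for GC content together with length were added after seeing the data. On counts simulated for this comparison, edgeR recovered 197 of 200 changed genes with 8 false calls among 4957 genes. The simulation gave all genes the same dispersion and used only changes of 2-fold or more. It had no length trend and no outlying library, so its recovery does not carry over to these data.

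The members and the gene lists were chosen with earlier results of these data known. All members are named. Genes of the related lists are named where they passed an FDR below 0.05, SMC genes always, and others beside them. Coordinates come from ASM294v3, matched by gene ID (5109 of 5184, 98.6%). The deposited table has no coordinates, so its assembly could not be compared. A promoter sequence of 1 member is not reported here. The p-values measure the spread between these libraries.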

Additional observations from a re-analysis of the deposited data

How the results depend on the processing

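*psm1* passed in every fit, but *psm3* and the counts that include it did not hold. With 2 members higher as reported, 1 was higher with library totals, in each of the 3 limma fits (whose filter, where used, left 5 of the members), and in each of the 3 fits with a length correction, and 1 to 2 when a library was left out. With 0 lower as reported, 1 (*rad21*) was lower in each of the 3 length-corrected fits. The count past 2-fold, 1 as reported, was 0 in both limma fits on log2(FPKM + 1), where *psm1* was at 0.89. Cohesin regulators had 0 lower as reported, 1 with the length correction with and without the block, and 0 to 2 without a library. The Smc5-Smc6 complex had 1 higher as reported, 0 in both limma fits with a filter (where *smc5* was not tested) and 2 with GC content and gene length correction. It had 4 lower as reported, 0 with library totals and in the 3 limma fits, 2 with DESeq2 and with the length correction and replicate block, and 0 to 3 without a library. The condensin and centromere partners had 0 lower as reported, 2 with the replicate block, 1 with the length correction and replicate block, and 0 to 2 without a library. Calls over all genes without a library were 577 to 1319 higher and 570 to 1375 lower. Limma called 892 to 921 higher and 444 to 449 lower.

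Signs turned in values near 0 that never passed. *psc3* was at −0.13 in both fits with gene length correction, *cnd2* at −0.07 with gene length correction and −0.09 with GC content added, and *rec11* at 0.05 with library totals and 0.04 to 0.08 by limma. *nbl1* was at 0.07 with library totals, 0.01 by limma on log2(FPKM + 1), and 0.15, 0.10, and 0.00 with the length corrections. Without a library *psc3* ranged from −0.02 to 0.37, *cnd2* from −0.22 to 0.45, *rec11* from −0.22 to 0.04, *ark1* from −0.12 to 0.12, and *nbl1* from −0.59 to 0.21. The causes were not tested.

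Deviations of log CPM from the genotype means correlated at −0.23, 0.356, and 0.298 between same-numbered libraries. Between libraries of different number they correlated at −0.512 to 0.371, and libraries were not treated as pairs. With the replicate block 1026 genes were higher and 1002 lower, *psm1* was at 1.53, and *psm3* was at 0.66 (adjusted *P* = 0.0309), all others of the members staying on their side. Ordered by CPM per kb, *psm3* and *cut14* exchanged ranks 6 and 7 in WT and no other rank changed. Counts of 18 to 200 per library for members other than *rad21* limit what could be detected for small differences.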

Other observations

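The genes next to the members were read as a description, chosen after their values were seen. Of the 20 nearest protein-coding neighbours tested, 3 passed as higher in *htb1-K119R* and 1 as lower, beside 18.6% higher and 19.3% lower among all genes tested, so neighbours were not called more often than genes in general. *exo1*, a DNA repair exonuclease gene that starts 330 bases downstream of *psm1* on the same strand, had a log2 fold change of 1.80 (adjusted *P* = 6.08e-05, edgeR's quasi-likelihood test), whereas *pcf1*, 731 bases upstream of *psm1* on the other strand, was at 0.40 (adjusted *P* = 0.192). The other neighbours higher in *htb1-K119R* were *pof3* beside *rad21* (1.47) and *set1*, the histone H3 Lys4 methyltransferase gene upstream of *cnd2* (0.50, adjusted *P* = 0.0378). The neighbour that was lower was SPAC607.02c beside *psc3* (−0.99).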
